A study of Mus musculus with 1646 samples.

Results

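*Olfr558* and *Olfr78* are a pair of olfactory receptor genes that lie close together on mouse chromosome 7, and their transcripts were measured here in single mesenchymal cells of the mouse colon. They are 2 of the 46517 gene rows in the colon table and 2 of its 1198 rows named Olfr. They were picked because their counts were already known to concentrate in vascular mural cells, the contractile cells that wrap blood vessels. Levels across cell classes are therefore given as a description, with no test.

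Olfactory receptors are G protein-coupled receptors of the nasal sensory neurons, where each neuron typically uses 1 receptor gene and signals through the G protein alpha subunit Gnal, adenylyl cyclase 3 and a cyclic nucleotide-gated channel. Some members of the family are also transcribed outside the nose. The Olfr78 protein is known as a receptor for short-chain fatty acids and has been described in smooth muscle of resistance vessels, in the kidney and in the oxygen-sensing cells of the carotid body. The Olfr558 protein has likewise been described as a receptor for small carboxylic acids. Pericytes sit on capillaries, vascular smooth muscle cells (SMC) on arterioles, arteries and veins, and the interstitial SMC of the colon lie outside vessel walls, in the study's account within the mucosa.

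The 1646 cells came from adult male mice aged 10 to 20 weeks, on 9 plates, and each cell is its own SmartSeq2 library, made from full-length cDNA of 1 sorted cell. A cell's reporter line, plate, well and cluster come from the sample labels. The lines are PdgfrbGFP (761 cells, 4 plates), Acta2GFP (567 cells, 2 plates), Cspg4dsRED (91 cells, 1 plate) and PdgfraGFP (the remaining cells, 2 plates). PdgfrbGFP, Acta2GFP and Cspg4dsRED are transgenes in which promoter sequence of the named gene drives a fluorescent protein, and PdgfraGFP is a nuclear GFP inserted in the *Pdgfra* locus. All were on a C57Bl6/J background, combined strains were also used according to the methods, and tissue of Acta2GFP mice received elastase in addition to the dissociation enzymes of the others. Cells positive for CD31, an endothelial protein, were left out of the sort. No label names a mouse, so the line is taken as the sample, and the spread between lines may be that of single animals. The median cell had 248628 counts, the shallowest 47598 and the deepest 1494292. Following the study, cluster 3 is called vascular SMC (8.57% of the cells), cluster 4 pericytes (8.63%), cluster 8 interstitial SMC (56 cells) and clusters 1, 2, 5, 6 and 7 fibroblasts (1307 cells).

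The class names were checked against marker genes, with levels as mean counts per 500000 counts of a cell. The summed level of the pericyte list (*Kcnj8*, *Abcc9*, *Higd1b*, *Cspg4* and *Rgs5*) was 4314 to 5273 in the pericytes of the lines with at least 10 such cells, 899 to 1358 in vascular SMC and at most 239.99 elsewhere. The vascular SMC list (*Acta2*, *Myh11*, *Tagln*, *Cnn1* and *Lmod1*) reached 5618 to 8534 in vascular SMC, 1544 to 2289 in pericytes and 9685 in interstitial SMC, which share the contractile genes. The interstitial SMC list (*Hhip*, *Rgs10*, *Acta2* and *Myh11*) summed to 8815 in interstitial SMC. It was 3851 to 6259 in vascular SMC and 1107 to 1639 in pericytes, and shares *Acta2* and *Myh11* with the vascular SMC list. The fibroblast list (*Pdgfra*, *Dcn*, *Lum* and *Col1a1*) summed to 4927 to 6027 in fibroblasts and 1051 in interstitial SMC. It was 733 to 1690 in pericytes and 112.1 to 655 in vascular SMC. The authors had removed cells with neither *Pdgfra* nor *Pdgfrb* and cells with clearly contaminated transcriptomes, so other cell types were largely excluded beforehand. In what was left, neither olfactory neurons nor hormone cells of the gut were visible in the mural classes. There, the olfactory neuron genes *Omp*, *Gng13* and *Cnga2* summed to at most 0.0574 and the enteroendocrine genes *Chga*, *Chgb*, *Pyy*, *Insl5* and *Neurod1* to at most 0.0287. *Cnga2* had no count in any cell. The endothelial list (*Pecam1*, *Cdh5*, *Kdr*, *Cldn5* and *Vwf*) summed to 21.6 to 24.3 in pericytes and 5.75 to 14.4 in vascular SMC. It was higher in pericytes, and its part in the differences between the classes was not tested.

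*Olfr558* (ENSMUSG00000070423) spans chr7:102702215-102712064 on the plus strand of GRCm38 in the GENCODE vM21 annotation, with 2 exons and 3041 exon bases. *Olfr78* (ENSMUSG00000043366) spans chr7:102738511-102759471 on the minus strand, with 6033 exon bases over 4 annotated transcripts. The genes are separated by 26.4 kb and are transcribed toward each other. Each has its coding sequence in 1 exon, of 951 bases before the stop codon in *Olfr558* and 960 bases in *Olfr78*.

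The coding sequences of the pair share 611 of 939 aligned bases (65.1%), and the longest run that is identical in both is 23 bases. The stretches around this run are printed because they are the place where the genes are most alike, and therefore where a read could most easily be assigned to the wrong one. They come from the GENCODE vM21 transcripts, are written 5′ to 3′ on the strand of the gene, and have the identical run in capitals. The *Olfr558* stretch is chr7:102709579-102709661 on the plus strand and the *Olfr78* stretch is chr7:102742610-102742692 on the minus strand, both in GRCm38. They lie in the region that codes for the inner end of the third membrane helix, which is conserved across olfactory receptors.
Olfr558: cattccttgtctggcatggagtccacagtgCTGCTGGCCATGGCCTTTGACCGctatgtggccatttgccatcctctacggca
Olfr78: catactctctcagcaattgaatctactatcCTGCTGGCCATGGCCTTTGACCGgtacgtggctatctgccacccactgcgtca

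The run is shorter than the reads, which are 50 bases long. No window of 50 bases was shared between transcripts of the pair. Of the 2992 windows of 50 bases in *Olfr558*, 52 (1.74%) occurred in another annotated transcript, all in Gm45688, a short pseudogene on the opposite strand within the second exon. Of the 6026 windows in *Olfr78*, 853 (14.2%) occurred elsewhere, 829 of them in *Olfr560*, a receptor gene annotated on the same strand inside *Olfr78* with 926 exon bases in common. *Olfr560* has no row in the table, so how reads of that stretch were assigned is not known here. Whether reads were counted by strand is not given in the sources used here, and without strand the reads of *Olfr558* and Gm45688 cannot be told apart there.

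The stretch just before *Olfr558* is printed because the pair is high in the same classes, where a shared sequence could be looked for. It is chr7:102702073-102702214 (GRCm38.p6, plus strand), taken from the RefSeq promoter table and cut to the bases before the GENCODE start, the RefSeq start lying further downstream, at base 102702323. Capitals mark the only match found, an E-box.
Olfr558 upstream: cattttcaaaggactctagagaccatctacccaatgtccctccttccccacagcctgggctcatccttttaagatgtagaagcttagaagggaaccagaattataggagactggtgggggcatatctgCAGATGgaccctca

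Motifs were searched as letters on both strands. The E-box (CANNTG), a short motif of helix-loop-helix factors, matched once, 14 to 9 bases before the GENCODE start, and 47.2% of the 32851 promoters in the table hold such a match in the same stretch of their window. The letters TGGGAA (RBPJ, the DNA-binding partner of Notch) occur there in 13.3% of promoters, the CArG box of serum response factor in 0.724%, TGANTCA (AP-1) in 3.73%, TATAAA in 6.99%, CCCNNGGG (contained in the Olf/EBF site) in 6.39% and TAATTA (homeodomain) in 3.06%, and none of these letters were in the *Olfr558* window. The table holds no entry for *Olfr78*.

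*Olfr558* was abundant in both kinds of vascular mural cell. Its mean level in vascular SMC was 264.4 counts per 500000 in Acta2GFP (29 cells), 286.8 in Cspg4dsRED (30 cells) and 342.5 in PdgfrbGFP (82 cells), which gives 297.9 ± 40.2 (SD, n = 3 lines). In pericytes it was 219.7 in Cspg4dsRED (33 cells) and 333.9 in PdgfrbGFP (mainly 49 cells of plate colon_685s and 47 of colon_686s), or 276.8 ± 80.8 (SD, n = 2 lines). The 5 pericytes of the other lines are not in these means. The ranges of the classes overlap, and within each of the lines that hold both, the pericyte mean was the lower one. On plates with at least 10 cells of each class the ratio of vascular SMC to pericytes was 1.31 on plate colon_516s, 0.983 on colon_685s and 1.08 on colon_686s. In the edgeR fit over all genes the log2 fold change of pericytes over vascular SMC was -0.36 ± 0.40 (SE).

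*Olfr78* was abundant in vascular SMC and lower in pericytes. In vascular SMC its mean level was 238.3 counts per 500000 in Acta2GFP, 184.97 in Cspg4dsRED and 202.3 in PdgfrbGFP, or 208.5 ± 27.2 (SD, n = 3 lines). In pericytes it was 58.8 in Cspg4dsRED and 40.6 in PdgfrbGFP, or 49.7 ± 12.9 (SD, n = 2 lines). The lines of the 2 classes do not overlap. The ratio of vascular SMC to pericytes was 3.14 on plate colon_516s, 5.11 on colon_685s and 4.79 on colon_686s, the plates with at least 10 cells of each class. The other plates held at most 5 pericytes each, and on colon_075s the 5 pericytes had a mean of 56.4 and the 1 vascular SMC had no count. The fitted log2 fold change of pericytes over vascular SMC was -2.27 ± 0.48 (SE).

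**Figure D1:**
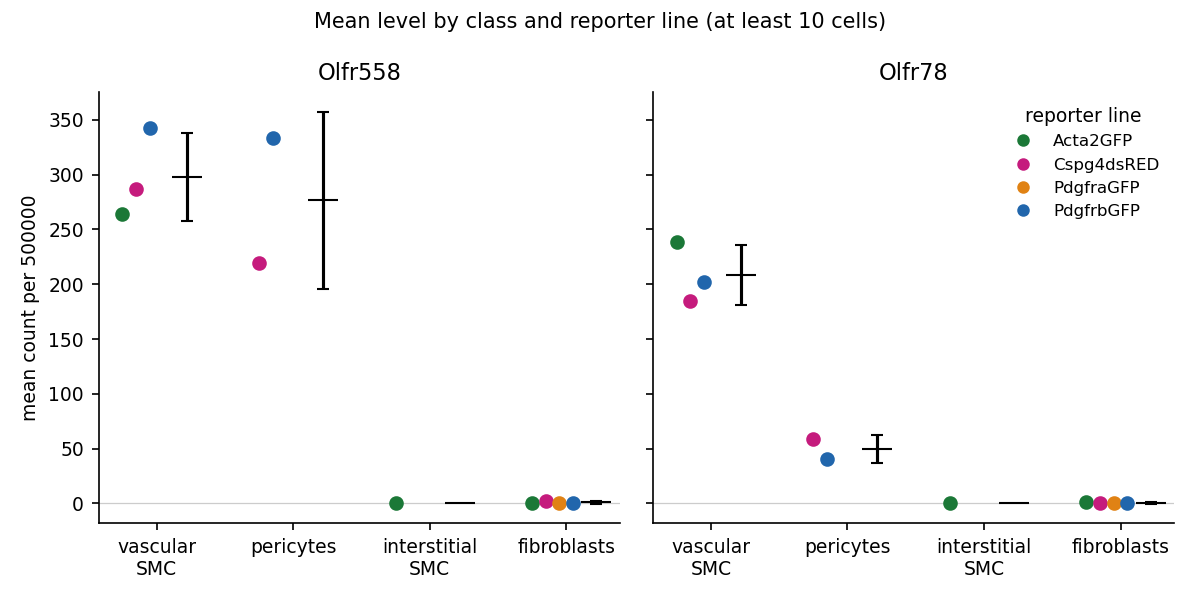
Mean count per 500000 (vertical axis) of *Olfr558* (left) and *Olfr78* (right) by cell class, with 1 coloured point per reporter line with at least 10 cells of the class and black bars for the mean and SD over lines. *Olfr558* lies between 219.7 and 342.5 in vascular SMC and pericytes, *Olfr78* between 184.97 and 238.3 in vascular SMC and at 40.6 and 58.8 in pericytes, and both lie near 0 in the other classes.

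The balance of the pair therefore differed by class. On a scale per kilobase of annotated exon, the *Olfr558* level was 86.95 to 112.6 counts per 500000 per kb in vascular SMC and the *Olfr78* level 30.7 to 39.5. In pericytes the *Olfr558* level per kb was 72.2 and 109.8, and that of *Olfr78* was 9.75 and 6.73. As a ratio of raw counts in the same cells, which needs no length, *Olfr558* over *Olfr78* was 1.11, 1.72 and 1.801 in the vascular SMC of the 3 lines, and 4.91 and 6.58 in the pericytes of 2 lines. The ratios of the classes do not overlap.

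Fibroblasts and interstitial SMC held almost no counts of either gene. The mean *Olfr558* level in fibroblasts was 0 in PdgfraGFP and at most 2.13, in Cspg4dsRED, with 0.803 ± 0.921 (SD, n = 4 lines) in all. That of *Olfr78* was 0 in Cspg4dsRED and PdgfraGFP and at most 1.09, in Acta2GFP (0.343 ± 0.518, SD, n = 4 lines). Interstitial SMC, which express the contractile genes at the highest level, were at 0.451 for *Olfr558* and 0.533 for *Olfr78* in the 1 line with at least 10 such cells (Acta2GFP, 52 cells). In the fit over all genes, the log2 fold change of mural cells (clusters 3, 4 and 8 together) over fibroblasts was 9.27 ± 1.25 (SE) for *Olfr558* and 8.59 ± 1.32 (SE) for *Olfr78*. No p is given for these because the genes were chosen for them.

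Among the 5 fibroblast clusters no line average exceeded 4.26 for *Olfr558*, which was the mean of 13 Cspg4dsRED cells in cluster 5, or 1.77 for *Olfr78*, the mean of the Acta2GFP cells in cluster 1. The latter rests mainly on 1 cell with 240.8 *Olfr78* counts per 500000, which had no *Olfr558* count. That cell was fibroblast-like in other respects, with 1009 counts of *Dcn*, 670 of *Lum* and 1120 of *Col1a1*, and with 26 counts of *Acta2*, 2 of *Tagln* and none of *Myh11*, *Rgs5*, *Notch3*, *Mcam* or *Des*. The next highest fibroblast had 39.2 counts of *Olfr78* per 500000, and the highest fibroblast for *Olfr558* had 23.01, with no fibroblast above 9 raw counts.

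**Figure D2:**
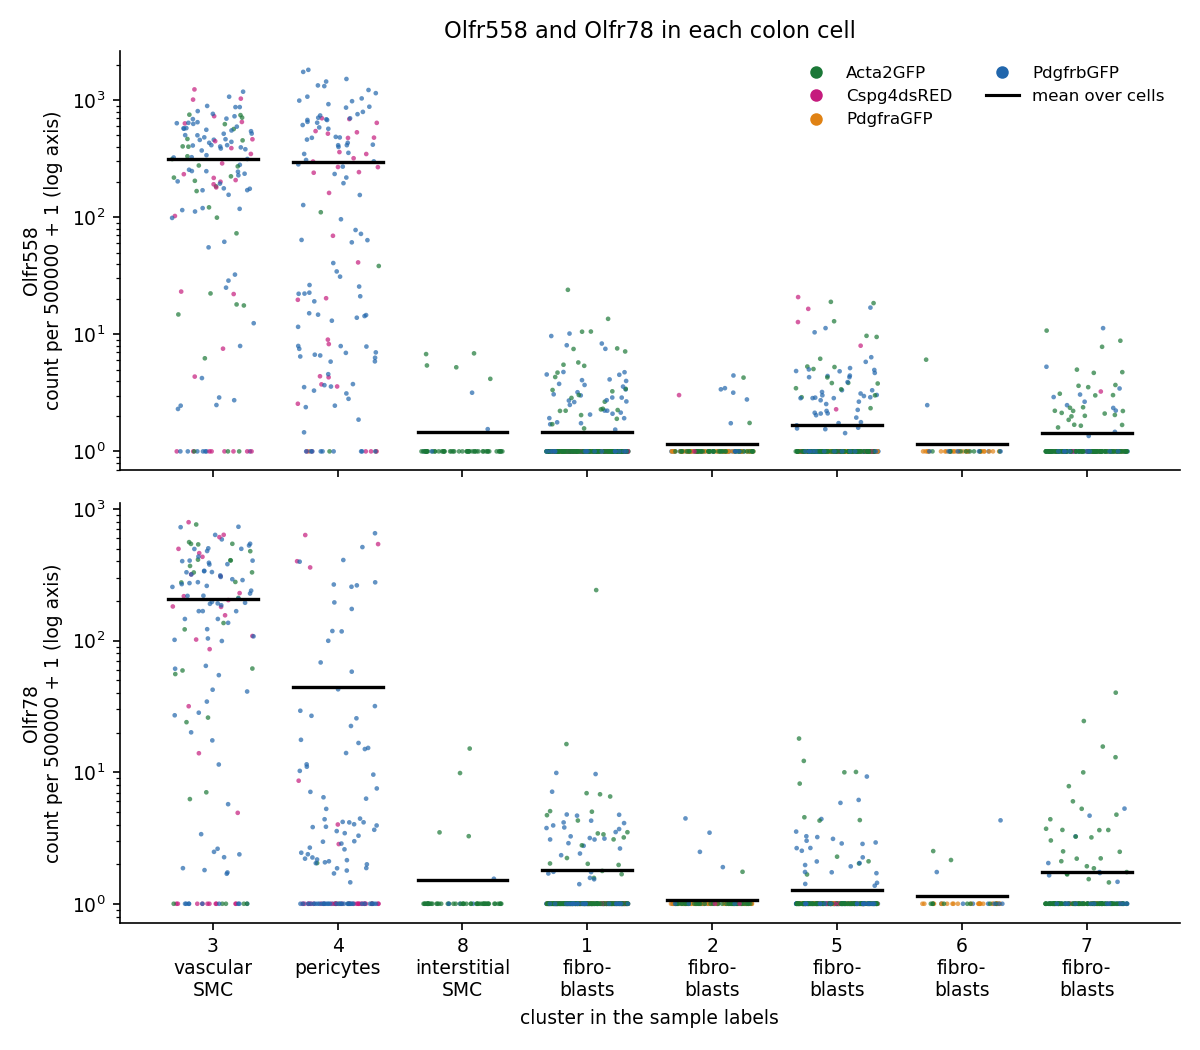
Counts per 500000 plus 1 on a log axis for *Olfr558* (top) and *Olfr78* (bottom) in each cell, by cluster, coloured by reporter line, with a bar at the mean over cells. Clusters 3 and 4 reach 1236 and 1818 for *Olfr558*, 59.6% of cluster 3 is above 100 for *Olfr78*, and clusters 8, 1, 2, 5, 6 and 7 stay at or below 39.2 except for 1 fibroblast at 240.8.

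Within the vascular classes, the levels were spread widely between cells. In vascular SMC, 98 cells (69.5%) were above 100 *Olfr558* counts per 500000 and 18 (12.8%) had none. In pericytes, 66 cells (46.5%) were above 100 and 17 (11.97%) had none. The pericyte medians were 160.5 in Cspg4dsRED and 62.9 in PdgfrbGFP, although the highest cells reached 700.5 and 1818, and the vascular SMC medians were 195.3 to 324.04. The counts of pericytes sat in fewer cells: the highest 15 held 56.6% of the pericyte counts and 41.6% of the vascular SMC counts of *Olfr558*. *Olfr78* was more unevenly spread over pericytes. In vascular SMC 84 cells (59.6%) were above 100, with medians of 209.7 in Acta2GFP, 104.004 in Cspg4dsRED and 175.3 in PdgfrbGFP. In pericytes 16 cells (11.3%) were above 100, the medians were 0 and 1.63, and the highest 15 cells held 92.1% of the counts, against 40.4% in vascular SMC.

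The share of cells with any count depends on depth, and low counts also occurred in fibroblasts, as described further on. *Olfr558* had a count in 88.03% of pericytes and 87.2% of vascular SMC, and *Olfr78* in 53.5% and 82.98%. Thinned to 50000 counts per cell, which leaves out 11 of the 1646 cells, the *Olfr558* shares were 70.7% and 82.1% and those of *Olfr78* 30% and 76.4%. Fibroblasts, which serve as the reference here, had a count of *Olfr558* in 13.9% of cells and of *Olfr78* in 10.4% (3.69% and 2.61% thinned). Their median depth was 253778 counts, against 209805 in pericytes and 359677 in vascular SMC.

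A stricter measure counts the cells above the second highest fibroblast, at 19.8 counts per 500000 for *Olfr558* and 39.2 for *Olfr78*. Above it were 59.2% of pericytes (exact 95% Clopper-Pearson interval 50.6 to 67.3%) and 77.3% of vascular SMC (69.5 to 83.9%) for *Olfr558*. For *Olfr78* there were 14.1% of pericytes (8.82 to 20.9%) and 66.7% of vascular SMC (58.2 to 74.4%). None of the 56 interstitial SMC was above it for either gene, which allows a share of up to 5.36% of cells. The intervals cover counting error only, since the cells are pooled over lines and plates that differ: *Olfr78* had a count in 21.2% of the pericytes of Cspg4dsRED and 65.4% of those of PdgfrbGFP. The interstitial SMC share with any count was 5% for *Olfr558* on plate colon_513s and 25% on plate colon_682s, beside 1.46% and 25.99% of the fibroblasts on the same plates.

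Most vascular SMC held both transcripts. Of these cells 76.6% had a count of both genes, 10.6% (15 cells) of *Olfr558* alone, 6.38% (9 cells) of *Olfr78* alone and as many of neither, an odds ratio of 7.2. In pericytes 72 cells (50.7%) had both, 53 *Olfr558* alone, 4 *Olfr78* alone and 13 neither, an odds ratio of 4.42. Of the cells with an *Olfr78* count, 94.7% of pericytes and 92.3% of vascular SMC also had an *Olfr558* count, beside 88.03% and 87.2% of all cells of these classes. The odds ratio in fibroblasts, from low counts, was 11.3. Within lines it was 15.3, 5.67 and 3.89 in the vascular SMC of Acta2GFP, Cspg4dsRED and PdgfrbGFP, 2.58 in the pericytes of PdgfrbGFP, and 7.51 and 11.5 in the fibroblasts of Acta2GFP and PdgfrbGFP. By plate it ranged in vascular SMC from 0 on colon_686s to 29 on colon_685s, where single cells fill some of the categories. The reverse held less often in pericytes, where 57.6% of the cells with *Olfr558* had *Olfr78*, against 87.8% in vascular SMC.

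With only cells above the second highest fibroblast counted as positive, 80 vascular SMC had both, 29 *Olfr558* alone, 14 *Olfr78* alone and 18 neither (odds ratio 3.55). In pericytes 18 had both, 66 *Olfr558* alone, 2 *Olfr78* alone and 56 neither (odds ratio 7.64). The plot of one gene against the other shows this as a filled upper right corner in vascular SMC and, in pericytes, as a band of cells that are high for *Olfr558* and at the fibroblast level for *Olfr78*. Within lines the levels of the pair were weakly related. Pearson's r of log2(count per 500000 + 1) was 0.29, 0.29 and 0.34 in the vascular SMC of Acta2GFP, Cspg4dsRED and PdgfrbGFP, and 0.24 and 0.31 in the pericytes of Cspg4dsRED and PdgfrbGFP. Spearman's rho was 0.34, 0.18, 0.36, 0.22 and 0.24 in the same order, over the numbers of cells given above. By plate, vascular SMC had an r of 0.61 and a rho of 0.45 on colon_685s (32 cells), and 0.20 and 0.28 on colon_686s (42 cells). Cells of 1 line share plates, and a cell's 2 values share its depth, so no p is given.

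**Figure D3:**
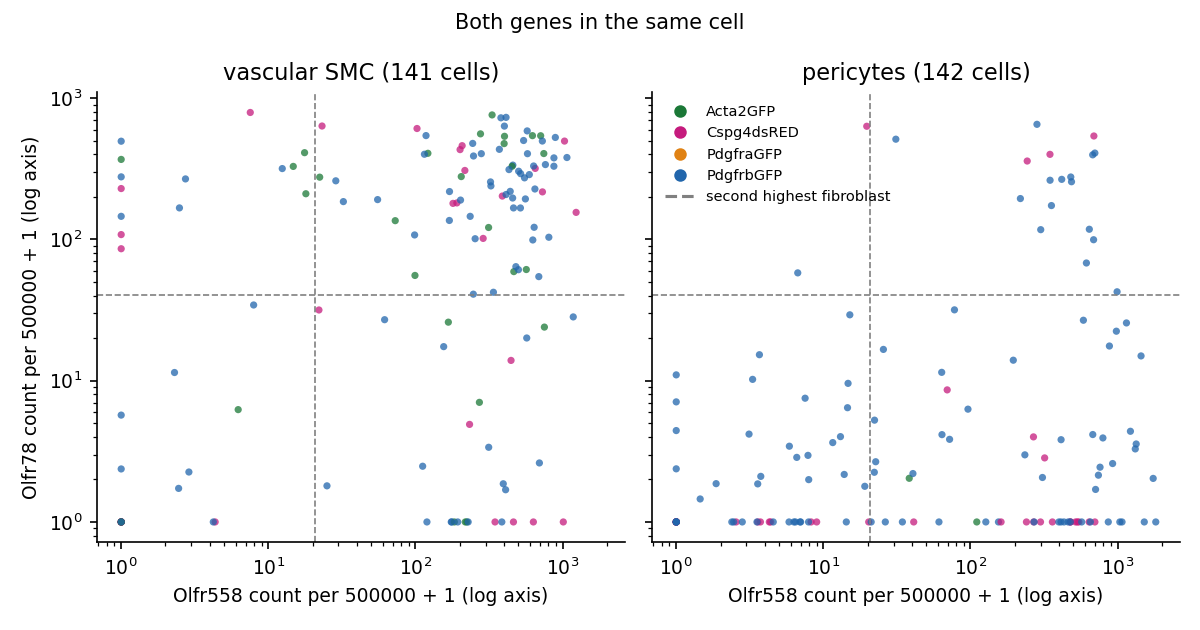
*Olfr78* against *Olfr558* in vascular SMC (left) and pericytes (right), both as count per 500000 plus 1 on log axes, 1 point per cell coloured by reporter line, with dashed lines at the second highest fibroblast of each gene. Above both lines lie 80 vascular SMC (56.7%) and 18 pericytes (12.7%), and 66 pericytes (46.5%) lie above the *Olfr558* line alone.

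The levels of the pair in pericytes were set beside those of contractile and pericyte genes. Spearman's rho of *Olfr78* with *Acta2*, *Myh11* and *Tagln* was 0.43, 0.36 and 0.41 in Cspg4dsRED and 0.22, 0.29 and 0.37 in PdgfrbGFP, and with the pericyte genes *Rgs5* and *Kcnj8* it was 0.03 and -0.15 in the former and 0.17 and -0.04 in the latter. For *Olfr558* the values with *Acta2*, *Myh11* and *Tagln* were 0.24, 0.26 and 0.24 in Cspg4dsRED but -0.05, 0.03 and 0.10 in PdgfrbGFP. In the latter, its rho with *Rgs5* was 0.40 and with *Kcnj8* 0.31. The rho of either gene with the cell's total was at most 0.10 in pericytes. These are weak relations within clusters that were drawn from the same counts. For *Olfr78* they mostly rank low values, since 66 pericytes were at 0 and 45 at or under 10 counts per 500000, which cannot be told apart from the low counts seen in fibroblasts.

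The low counts in fibroblasts differed by plate. No fibroblast of the PdgfraGFP plates had a count of either gene, which allows a share of up to 1.95% on colon_439s and 4.23% on colon_1075s (71 cells), and each of these plates held 1 mural cell, with no count of either gene. On the other plates the share of fibroblasts with *Olfr558* was 1.46% (colon_513s), 10.4% (colon_075s), 14.9% (colon_073s), 25% (colon_516s), 25.99% (colon_682s), 31.5% (colon_685s) and 80.8% (colon_686s). The *Olfr558* counts of the plate's mural cells, divided by all cells of the plate, were in the same order 2.25, 1.41, 5.54, 61.5, 11.3, 108.99 and 336.6. For *Olfr78* the fibroblast shares were 0.971%, 4.8%, 15.4%, 0%, 23.1%, 20.4% and 38.5%, and the mural counts per cell of the plate 2.62, 0.376, 5.79, 27.6, 9.60, 49.03 and 115.9. Thinned to 50000 counts per cell the order changed: the *Olfr558* shares were 1.47%, 2.01%, 3.32%, 14.3%, 7.25%, 15.4% and 0% (0 of 26 on colon_686s), and those of *Olfr78* 0.980%, 0%, 3.32%, 0%, 6.16%, 11.5% and 3.85%.

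They also differed with the position of the well. All wells of a plate carried their own pair of index sequences and were pooled on 1 sequencing lane. Fibroblasts were therefore grouped by the summed counts of the gene in the other wells of their plate row and column. The PdgfraGFP plates, where no cell had a count of either gene, were left out. With no such counts, 0 of 85 fibroblasts had *Olfr558* (up to 3.53% allowed). The share was 0.518% with up to 10 such counts (2 cells), 1.69% above 10 and up to 100 (3 cells), 28.9% above 100 and up to 1000 (99 cells), and 84.8% above 1000 (78 of 92 cells). Thinned to 50000 counts per cell, these shares were 0%, 0.260%, 0.565%, 7.99% and 20.7%. For *Olfr78* the shares in the same order were 0% (up to 2.01% allowed), 0.257%, 9.18%, 23.9% and 68.2% (30 of 44 cells), and thinned 0%, 0%, 1.03%, 6.02% and 20.5%. Within single plates, Spearman's rho between a fibroblast's *Olfr558* level and the counts in its row and column was 0.08 on plate colon_513s and 0.42 to 0.64 on the 6 other plates with counts. For *Olfr78* it was 0.11 on plate colon_513s and 0.30 to 0.58 on 5 others. What carries these counts was not tested, and low counts in a pericyte cannot be told apart from them: 45 of the 76 pericytes with *Olfr78* were at or under 10 counts per 500000.

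**Figure D4:**
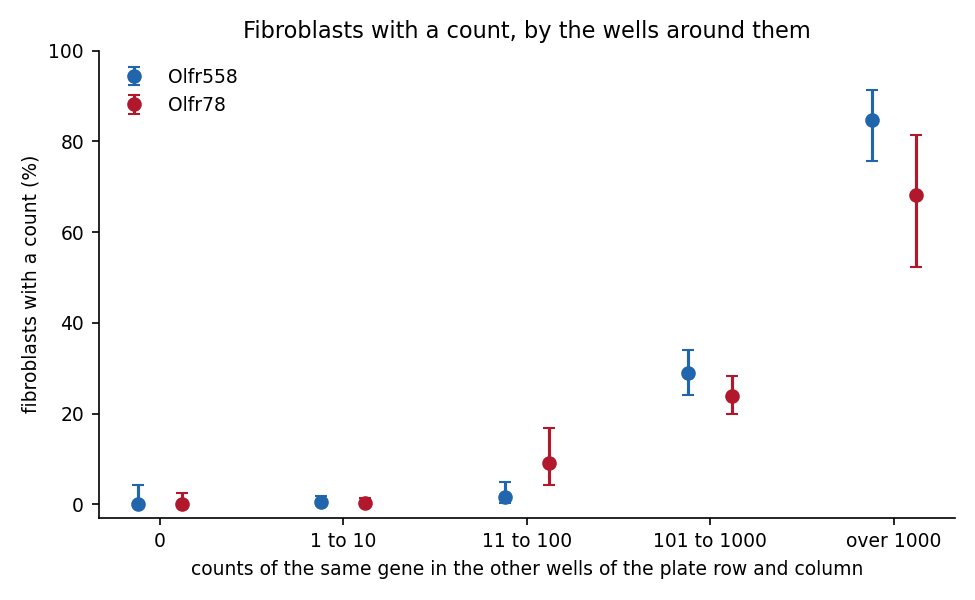
Percent of fibroblasts with a count (vertical axis) by the summed counts of the same gene in the other wells of the plate row and column (horizontal axis), for *Olfr558* (blue) and *Olfr78* (red), with exact 95% Clopper-Pearson intervals for counting error. The PdgfraGFP plates, which hold no count of either gene, are left out, and the share goes from 0% with no counts in row and column to 84.8% for *Olfr558* and 68.2% for *Olfr78* with over 1000.

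The pair stood apart from the rest of its family in amount. *Olfr558* and *Olfr78* held 90.8% of the 103243 counts on the 1198 Olfr rows, and 95.6% of those in mural cells. Of the other 1196 Olfr rows, 1056 had no count in any cell, 12 had counts in 10 or more cells and the remaining ones in 1 to 9. Per kilobase of exon over all cells, *Olfr558* had 21577 counts and *Olfr78* 4662, and the 5 next were *Olfr56* (1080), *Olfr613* (202.1), *Olfr1033* (146.2), *Olfr99* (140.04) and *Olfr1401-ps1* (118.5). These were not tied to mural cells in the same way. *Olfr56* had a count in 31.6% of mural cells and 20.7% of fibroblasts, *Olfr613* in 23.6% and 18.9% and *Olfr1033* in 3.24% and 2.98%, against 75.2% and 13.9% for *Olfr558*. By amount *Olfr56* also leaned to mural cells, but less: these cells, fewer than the fibroblasts, held 2685 of its 4902 counts. They held 65293 of the 65617 counts of *Olfr558* and none of *Olfr1401-ps1*. Among receptors described in other tissues outside the nose, *Olfr2*, *Olfr544* and *Olfr1393* had no count and *Olfr16* had counts in 10 cells.

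Genes beside the pair on the chromosome did not share their level. Within 100 kb there are 21 other annotated genes, of which 13 have a row in the table. *Olfr557*, whose annotated end lies 1.51 kb before *Olfr558*, had no count in any cell, nor had *Olfr554*, *Olfr555*, *Olfr556* or *Olfr561*. *Olfr33*, which lies between the pair on the minus strand, 9.94 kb from the *Olfr558* start at its nearer end, had counts in 8 cells. Of these 5 were vascular SMC and 3 pericytes, all 8 had *Olfr558* and 6 had *Olfr78*. *Olfr559*, also between the pair, had 21 counts in 1 pericyte. *Trim68*, a ubiquitin ligase gene 14.9 kb upstream of *Olfr558*, was detected in 380 cells, 23.9% of fibroblasts and 24.8% of vascular SMC.

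**Figure D5:**
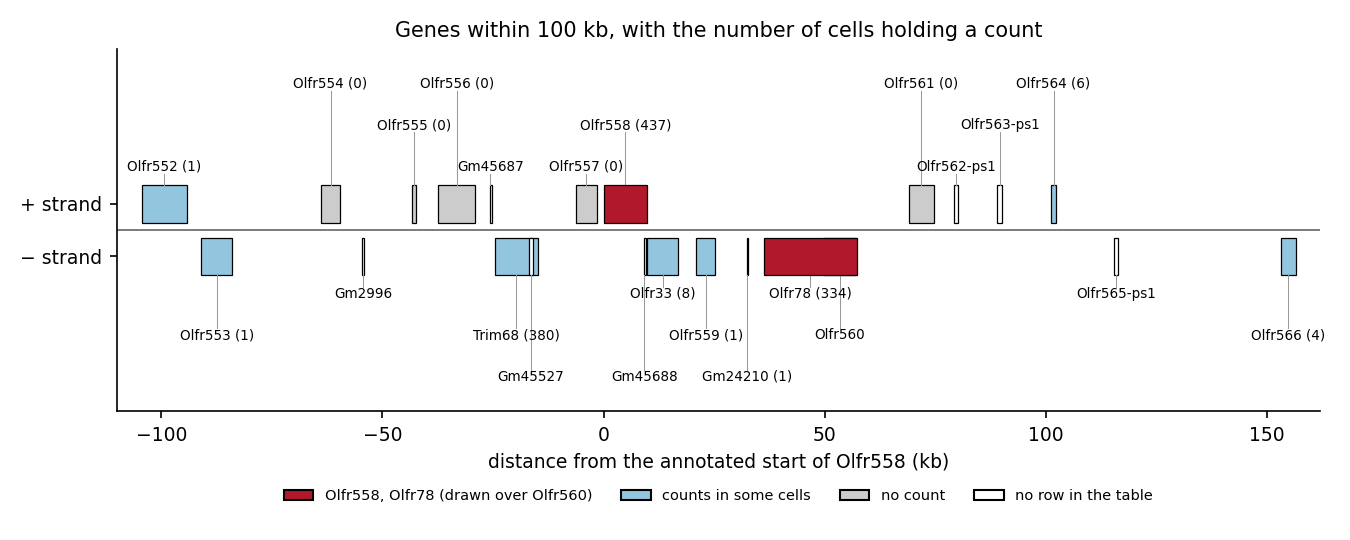
Annotated genes within 100 kb of the pair by distance from the *Olfr558* start in kb (horizontal axis) and strand, with the number of cells holding a count in brackets where the gene has a row in the table. *Olfr558* and *Olfr78* stand among receptor genes with counts in 0 to 8 cells, and of the other genes drawn only *Trim68* (380 cells) comes near their number of cells.

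The genes most similar in pattern were sought over 21 groups of cluster and line with at least 10 cells, by Pearson's r of log2(mean count per 500000 + 1), among 14327 genes with a mean of 5 or more in some group. For *Olfr558* they were *Fhl5* (0.995), a LIM-domain cofactor of CREM, *Gja4* (0.991), the gap junction protein connexin 37, *Sncg* (0.991), gamma-synuclein, *Slc38a11* (0.988), a putative amino acid transporter, and *Apold1* (0.985). *Gja4*, of these the nearest to *Olfr558* in level, was at 304.5 ± 31.6 (SD over 2 lines) in pericytes and 275.99 ± 10.1 (SD over 3 lines) in vascular SMC, beside 2.19 in fibroblasts and 0.653 in interstitial SMC.

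For *Olfr78* they were *Hey2* (0.994), a Notch target of arterial cells, *Tesc* (0.991), *Gm44596* (0.990), *Kcna5* (0.989), the voltage-gated potassium channel Kv1.5, and *Nrip2* (0.983). They shared its step between the vascular classes. *Kcna5* was at 30.6 ± 5.38 in pericytes (SD over 2 lines) and 208.4 ± 80.4 in vascular SMC (SD over 3 lines), and *Hey2* at 29.4 ± 0.377 and 101.5 ± 16.9. *Olfr78* was the 17th most similar gene to *Olfr558* (r = 0.969), and *Olfr558* the 18th to *Olfr78*. Groups of 1 line share plates, and the genes include those the clusters were drawn from. By Spearman's rank correlation none of the 5 genes for *Olfr558* and 1 of the 5 for *Olfr78* (*Hey2*) stayed in the list.

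The machinery that olfactory receptors use in the nose was present in part. Of the 54 genes in 7 lists of receptor signalling, 34 could be tested for mural cells against fibroblasts. There, 6 passed edgeR's quasi-likelihood test at an adjusted p of 0.05, where 6.57% of all genes passed. Of these, 4 were higher in mural cells and 2 lower, beside 3.36% and 3.21% of all genes. The median log2 fold change of the 34 was 0.77, beside 0.03 over all genes tested. The lists were chosen with earlier results of these data known, and the clusters were drawn from the same counts. A pass is therefore no independent support. With the reporter line as a block, *Prkar1a* and *Reep1* passed and the other 5 did not. The share of all genes that passed with the block was 3.08%. Without PdgfrbGFP none of the list genes passed, beside 1.81% of all genes, and 10 had an unadjusted p under 0.05, beside 16% of all genes. Without Acta2GFP only *Adcy6* did, beside 3.24% of all genes. In Acta2GFP 52 of 84 mural cells were interstitial SMC.

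Protein kinase A is the kinase that cyclic AMP activates, and its regulatory and catalytic subunits are coded by separate genes. *Prkar1a* (regulatory) was at 517, 969 and 637 counts per 500000 in the mural cells of Acta2GFP, Cspg4dsRED and PdgfrbGFP and at 232.03 to 309.1 in the fibroblasts of 4 lines, which do not overlap. Its log2 fold change was 1.47 ± 0.27 (SE, edgeR adjusted p = 0.0115, and 0.0284 with the block). *Prkacb* (catalytic) was at 76.8 to 96.7 in mural cells and 32.98 to 55.7 in fibroblasts, with a log2 fold change of 1.44 ± 0.25 (SE, adjusted p = 0.00936, and 0.0546 with the block). All 6 listed subunits had a positive fold change and 2 passed, beside 6.57% of all genes. With the block 5 were positive and 1 passed, beside 3.08%. Without PdgfraGFP or PdgfrbGFP 5 were positive, and 2 and 0 passed, beside 5.81% and 1.81%.

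Adenylyl cyclases, which make cyclic AMP, went in both directions. *Adcy6* was at 12.6, 45.6 and 50.9 in mural cells and 6.82 to 18.2 in fibroblasts, with a log2 fold change of 2.41 ± 0.48 (SE, adjusted p = 0.0159, and 0.0674 with the block). *Adcy9* was at 18.3, 39.95 and 45.9 against 4.82 to 7.84, with 2.27 ± 0.48 (SE, adjusted p = 0.0210, and 0.0724 with the block). *Adcy7* was lower in mural cells, at 0.743, 0.200 and 2.16 against 21.5 to 61.4, with -4.38 ± 1.03 (SE, adjusted p = 0.0341, and 0.0800 with the block). The groups overlap for *Adcy6* but not for *Adcy9* or *Adcy7*. By class, *Adcy6* was at 24.2 to 59.6 in vascular SMC, 32.8 and 73.8 in pericytes and 0.290 in the interstitial SMC of Acta2GFP. *Adcy9* was at 31.1 to 76.4 in vascular SMC and at 47.96 and 23.5 in pericytes. In the interstitial SMC of Acta2GFP it was at 5.84, within the fibroblast range. *Adcy3*, the cyclase of the nose, did not pass (log2 fold change 1.48 ± 0.47, SE, edgeR adjusted p = 0.100), but did by DESeq2 (adjusted p = 0.0449) and with plates in place of lines (edgeR adjusted p = 0.00726). Fibroblasts had 14.2 ± 7.40 counts of it per 500000 (SD over 4 lines), pericytes 69.1 ± 1.75 (2 lines) and vascular SMC 48.7 ± 20.9 (3 lines).

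Of the other transduction genes, the general G protein subunits *Gnas* and *Gnb1* were high, with means over lines of 406.8 to 651 and 161.3 to 285.4 in fibroblasts, pericytes and vascular SMC. The nasal alpha subunit *Gnal* was at 2.54 ± 3.03 in vascular SMC (SD, n = 3 lines), 12.3 ± 7.73 in pericytes (n = 2) and 7.67 ± 0.663 in fibroblasts (n = 4). The nasal channel genes were nearly empty: *Cnga2* had no count, *Cnga4* 1 and *Cngb1* 60 in all cells. *Ano2*, a calcium-activated chloride channel of the nasal cilia, was lower in mural cells, at 0.420, 0.354 and 0.0738 against 2.29 to 19.8 in fibroblasts (log2 fold change -5.68 ± 1.21, SE, adjusted p = 0.0225, and 0.119 with the block).

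Receptor transport proteins carry olfactory receptors to the surface of the sensory neuron. *Rtp1* and *Rtp2*, the main ones in the nose, had no count. *Reep1* was at 32.3, 5.91 and 17.04 in mural cells and at 0 to 1.09 in fibroblasts, with a log2 fold change of 5.71 ± 1.56 (SE). Its edgeR adjusted p was 0.0616, and 0.0460 with the block. By class, *Reep1* was at 36.1 in the interstitial SMC of Acta2GFP, which held almost no counts of the pair. It was at 9.52 to 34.7 in vascular SMC and at 2.62 and 3.71 in pericytes. None of the 4 genes tested of the receptor gene choice list passed, while with plates in place of lines, where sums of 1 line are not independent, 3 did (*Atf5*, *Ebf1* and *Ldb1*), beside 16.1% of all genes. *Ebf1*, a factor of olfactory and vascular mural cells, was the highest of that list in the vascular classes, at 278.3 ± 154.9 in pericytes (SD over 2 lines) and 138.4 ± 67.2 in vascular SMC (SD over 3 lines). The short-chain fatty acid receptors *Ffar2* and *Ffar3* had 9 counts and 1 count in all cells.

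Between pericytes and vascular SMC, where *Olfr78* differs and *Olfr558* less so, none of the 30 list genes tested passed edgeR's test, beside 0.668% of all genes. At an unadjusted p of 0.05 there were 9, beside 10.9% of all genes, and DESeq2 called 6 (*Adcy2*, *Adcy5*, *Hcar2*, *Prkar2b*, *Reep1* and *Rtp4*), beside 5.96% of all genes. *Adcy5* was at 17.99 ± 18.99 in pericytes (SD over 2 lines) and 57.8 ± 25.3 in vascular SMC (SD over 3 lines), and *Reep1* at 3.17 ± 0.768 and 24.4 ± 13.2. The median log2 fold change of the 30 was 0.23, beside -0.03 over all genes.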

How the data were processed

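Per the methods, the authors trimmed and mapped single reads of 50 bases to GRCm38 (TopHat2) and counted them per gene (featureCounts). They removed poor cells, likely doublets, cells with neither *Pdgfra* nor *Pdgfrb* and cells with clearly contaminated transcriptomes. They deposited a table of raw counts, 1 column per cell. A caller for doublets was not applied again. All 1646 columns matched a sample title. Totals leave out 92 spike-in rows, 1.36% of counts. GENCODE vM21 names 46005 of the 46517 gene rows. The 2 genes, the lists and the markers were chosen with earlier results of these data known. Class names follow the study, since the labels number the clusters only, and the clusters were drawn from the same counts.

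A level is a mean over the cells of a class and line (10 or more cells) of counts per 500000 counts of the cell, then mean ± SD over lines. Shares have 95% Clopper-Pearson intervals, and a count of 0 allows 3 counts of the total. For the tests, each line's cells of a class were pooled by adding raw counts where there were 10 or more. TMM scaling, the filterByExpr filter and the edgeR quasi-likelihood test (Benjamini-Hochberg) were applied to these sums, with 3 sums of mural cells against 4 of fibroblasts, and 2 of pericytes against 3 of vascular SMC. The single interstitial SMC sum was fitted along. A standard error is the log2 fold change over the square root of F. No label names an animal, so p-values measure the spread between lines only. The line pairs the sums, since they share a reporter label, and sums of 1 line deviated together from their class means (r = 0.152, 0.166 and 0.175 for mural cells and fibroblasts, 0.157 and 0.150 for pericytes and vascular SMC), so the line was also fitted as a block.

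Named are both members, list genes that passed or were highest, the 5 other Olfr genes with the most counts per kb, genes within 100 kb and the 5 most similar genes of each member; *Hcar1* and *Hcar2* were added after their values were seen. Alternatives were DESeq2, no filter, the block, each line left out, plates for lines, sums of 3 or more cells, other measures of level, share and likeness and, chosen after seeing the data, values within plates, cells above fibroblast values and fibroblasts by plate row and column. Software was edgeR 4.0.16, DESeq2 1.42.0 and limma 3.58.1 in R 4.3.3, and scipy 1.17.1, pandas 2.3.3, numpy 2.4.6 and Biopython in Python 3.11.15.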

Additional observations from a re-analysis of the deposited data

Results flagged for a closer look

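The share of fibroblasts with an *Olfr558* count was 80.8% on plate colon_686s (21 of 26 cells), farther from the other 8 plates than Dixon's test allows, the next being 31.5%. Thinned to 50000 counts per cell, 0 of these 26 cells had a count, and the highest share was 15.4%, on colon_685s. The fibroblasts of colon_686s had a median of 1068291 counts per cell, and its mural cells held 39049 *Olfr558* counts, the most of any plate. Their mean *Olfr558* level was 1.52 counts per 500000, beside 2.13 on plate colon_516s and 1.54 on plate colon_685s. In all 21 groups of 4 to 10 values were checked, and chance puts about 1 in 20 groups past this limit.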

How the results depend on the processing

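For mural cells against fibroblasts, the 6 list genes that passed became 10 by DESeq2 and 15 with plates in place of lines, where 15.5% and 16.1% of all genes passed. With a line left out they were 0 without PdgfrbGFP (1.81% of all genes), 1 without Acta2GFP (3.24%) and 5 without Cspg4dsRED (5.66%) or PdgfraGFP (5.81%). With the reporter line as a block they were 2, beside 3.08% of all genes. For pericytes against vascular SMC the 0 became 6 by DESeq2, 2 with no filter, 1 with sums of at least 3 cells and 1 with plates, beside 5.96%, 1.85%, 0.595% and 2.18% of all genes. It stayed 0 with the block and without Acta2GFP, beside 1.04% and 0.3% of all genes. Without Cspg4dsRED or PdgfrbGFP only 1 pericyte sum is left, which is assumed to vary like the 2 vascular SMC sums. Counts from these fits would be no check of stability and are left out. With the block, the log2 fold changes of mural cells over fibroblasts were 8.62 for *Olfr558* and 8.60 for *Olfr78*, and those of pericytes over vascular SMC -0.52 and -2.21. With a line left out they were 8.74 to 9.73 and 8.13 to 10.14, and -0.53 to -0.05 and -2.33 to -2.20. With sums of at least 3 cells those of pericytes over vascular SMC were -0.78 and -2.80.

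From summed raw counts the *Olfr558* level was 344.6 in vascular SMC and the *Olfr78* level 0.943 in interstitial SMC, where it was 1.09 over plates. The *Olfr558* share of cells, thinned to 50000 counts, was 70.7% in pericytes, 3.69% in fibroblasts and 1.85% in interstitial SMC, and that of *Olfr78* 30%, 2.61% and 0%. At 10 or more counts the *Olfr558* shares were 56.3% in pericytes, 77.3% in vascular SMC and 0% in both other classes, and those of *Olfr78* 15.5%, 71.6%, 0.0765% in fibroblasts and 1.79% in interstitial SMC. Above the highest fibroblast they were 56.3% of pericytes, 75.2% of vascular SMC and 0% of interstitial SMC for *Olfr558*, and 8.45%, 37.6% and 0% for *Olfr78*. Above the second highest, measured after seeing the data, they were 59.2%, 77.3% and 0%, and 14.1%, 66.7% and 0%.

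With a line left out, the *Olfr558* share ranged from 11.1 to 16.8% in fibroblasts, 9.62 to 50% in interstitial SMC, 78.9 to 89.3% in pericytes and 81.4 to 90.99% in vascular SMC, and that of *Olfr78* from 8.50 to 12.6%, 7.69 to 25%, 21.1 to 63.3% and 74.6 to 87.4%. The levels ranged from 0.362 to 1.07 in fibroblasts, 219.7 to 333.9 in pericytes and 275.6 to 314.7 in vascular SMC for *Olfr558*, and from 0.0926 to 0.458, 40.6 to 58.8 and 193.7 to 220.3 for *Olfr78*. The odds ratio of finding both genes was 11.7 over mural cells, 4.42 in pericytes alone and 4.23 to 16.99 with a line left out. Of the 5 most similar genes, Spearman's rank correlation kept 0 for *Olfr558* and 1 for *Olfr78*, and a pseudocount of 10 kept 3 for *Olfr558*. The cause of these shifts was not tested.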

Other observations

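Of the other receptors for small acids in the lists, *Hcar1* and *Hcar2*, receptors for lactate and for ketone-type ligands, had more counts than *Ffar2* and *Ffar3*. *Hcar1* was at 26.6 ± 21.9 counts per 500000 in pericytes (SD over 2 lines), 2.50 ± 3.603 in vascular SMC (3 lines) and 16.8 ± 3.53 in fibroblasts (4 lines). *Hcar2* was at 31.96 ± 30.6, 0.160 ± 0.162 and 11.1 ± 8.48 in the same order. Neither passed edgeR's test between pericytes and vascular SMC (adjusted p = 0.426 and 0.144). Under other settings *Hcar2* passed edgeR's test with no filter (adjusted p = 0.0310) and with plates in place of lines (0.0260) and also passed by DESeq2 (1.28e-06). Without PdgfrbGFP, which leaves 1 pericyte sum that is assumed to vary like the 2 vascular SMC sums, the adjusted p of *Hcar1* was 0.0114. The adjusted p of *Hcar2* ranged up to 0.340 with the block, and that of *Hcar1* up to 0.9497 without Cspg4dsRED.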
